A study of Homo sapiens with 20 samples.

Results

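The mitochondrial respiratory chain is described here through its nuclear genes, taken as every symbol of the expression table that begins with NDUFA, NDUFB, NDUFC, NDUFS or NDUFV and a digit (complex I), that is SDHA to SDHD (complex II), or that begins with UQCR (complex III), with COX4I, COX5A, COX5B, COX6, COX7 or COX8 (complex IV) or with ATP5 (complex V). The rule found 92 of 21201 symbols, of which 41 belong to complex I by symbol, 4 to complex II, 10 to complex III, 17 to complex IV and 20 to complex V. Of the 92, 81 encode subunits, 3 encode assembly or associated factors (COX7A2L, ATP5S, ATP5SL), and the other 8 are antisense RNAs, readthrough transcripts, pseudogenes or retrocopies. NDUFA4 and NDUFA4L2 were kept with the NDUF symbols, although the NDUFA4 protein is now placed in complex IV. The rule leaves out NDUFAB1 and CYC1, subunits of complexes I and III. They are counted below with the assembly factors and with the other electron carriers.

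Complexes I and II pass electrons from NADH and succinate to ubiquinone, complex III passes them on to cytochrome c, and complex IV passes them to oxygen. Complexes I, III and IV pump protons across the inner mitochondrial membrane, and complex V, the ATP synthase, uses the resulting gradient to make ATP. Most subunits are encoded in the nucleus, a small core set is encoded by mitochondrial DNA, and several nuclear subunits exist as a ubiquitous and a tissue-restricted isoform.

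The study asked which transcripts respond to the tankyrase inhibitor G007-LK (TNKSi) in tumor cell lines whose growth it reduced. RNA of 5 established human cell lines was sequenced after 24 h with 1 µM G007-LK or with the solvent, 0.01% DMSO, in 2 libraries for each line and treatment, 20 libraries in all. The TNKSi-sensitive cell lines were ABC-1, labelled as lung, COLO 320DM, labelled as colon, OVCAR-4, labelled as ovary, and UO-31, labelled as kidney, and RKO, also labelled as colon, was the insensitive control. ABC-1 and RKO were grown in EMEM and the other lines in RPMI. A difference between lines grown in different media cannot be told apart from a difference in medium.

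Values are RPKM, the mapped reads of a gene scaled by its length and by the mapped reads of the library. Of the defining markers, PAX8 was at 63.9 to 83.7 RPKM in UO-31 and 81.3 to 89.5 in OVCAR-4. CDX2 was at 516 to 763 RPKM in COLO 320DM but at 6.88 to 7.43 in RKO, the other colon line. PAX2 was at 6.36 to 8.84 RPKM in UO-31 and at most 0.05766 in OVCAR-4. Other defining markers were near 0 in lines they should mark, with NAPSA and SFTPB at most 0.276 RPKM in ABC-1, WT1 at most 0.138 in OVCAR-4, and CDX1, VIL1 and LGALS4 at most 0.081 in COLO 320DM and RKO. The epithelial markers EPCAM and CDH1 were at most 1.403 and 0.3621 RPKM in COLO 320DM and 3.177 and 0.104 in RKO. KRT18 was at 66.2 to 76.3 RPKM in COLO 320DM and at 68 to 76.8 in RKO. PTPRC, which these cultures should lack, was at 2.68 to 4.05 RPKM in COLO 320DM. The library total of mapped reads was not analysed here, and within a line the relative depth read from the smallest steps of the values lay between 0.855 and 1.11. The summed RPKM ran from 367196 to 909187, the highest in OVCAR-4, so levels are also compared between lines after division by that sum. Nothing in the labels says that the 2 libraries of a group came from separate cultures, and the p-values then measure only the spread between these libraries.

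Upstream sequences are given for 4 members on which the results turn, from RefSeq on GRCh38.p14, each ending at the base before the annotated start. Capitals mark an ETS motif (CCGGAAG) or an NRF1 motif (GCGCATGCG), the motifs of GABP and NRF1, transcription factors known to act on respiratory chain genes. The UQCRH sequence (chr1:46303618-46303697, plus strand) covers the gap to its head-to-head neighbour, SDHB lies at chr1:17054033-17054182 (minus strand), ATP5C1 at chr10:7788027-7788176 (plus strand) and ATP5G1 at chr17:48892637-48892786 (plus strand). UQCRH is shown because its level differed most between lines, ATP5G1 and SDHB because of their response, and ATP5C1, the gamma subunit of the ATP synthase, as an example of the NRF1 motif.
UQCRH: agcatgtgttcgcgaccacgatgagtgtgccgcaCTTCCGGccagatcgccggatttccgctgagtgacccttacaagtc
SDHB: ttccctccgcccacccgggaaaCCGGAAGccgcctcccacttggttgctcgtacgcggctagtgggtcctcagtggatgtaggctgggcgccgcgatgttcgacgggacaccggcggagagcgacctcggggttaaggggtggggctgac
ATP5C1: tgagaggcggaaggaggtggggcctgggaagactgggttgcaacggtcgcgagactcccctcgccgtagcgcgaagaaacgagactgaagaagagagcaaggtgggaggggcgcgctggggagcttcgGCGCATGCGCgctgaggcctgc
ATP5G1: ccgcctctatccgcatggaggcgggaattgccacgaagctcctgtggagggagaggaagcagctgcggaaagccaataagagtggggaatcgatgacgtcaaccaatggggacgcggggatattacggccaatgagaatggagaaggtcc
The UQCRH and SDHB sequences hold 1 ETS motif each, on opposite strands, and the ATP5C1 sequence holds the NRF1 motif, on both strands with overlap. None of the 4 motifs searched was found in the 250 bases upstream of ATP5G1. Over 67 subunit genes with a RefSeq promoter, the NRF1 motif stood in 9 (13.43%) within 250 bases upstream on either strand, against 1.64% of all 35116 promoters and 3.04% of the 11031 promoters of genes whose mean reached 1 RPKM in a line. The ETS motif stood in 16 of the 67 (23.88%), against 8.52% and 15.24%, and the E-box CACGTG in 6 (8.96%), against 6.34% and 8.93%. The GC box GGGGCGGGG stood in 9 (13.43%), against 15.1% and 27.19%. These matches are a description of the letters and not of bound sites.

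The most divergent member between the lines was UQCRH, the acidic hinge protein of complex III, at chr1:46769370-46782448 on GRCh37. In UO-31 its level was 0.506 and 0.167 RPKM with DMSO and 0.375 and 0.0764 RPKM with G007-LK. In OVCAR-4 it was 0.874 and 0.769 RPKM with DMSO and 1.1 and 0.727 RPKM with G007-LK. In COLO 320DM it was 207, 211, 213 and 200.1 RPKM, in ABC-1 233 and 234 RPKM with DMSO and 189 and 186 RPKM with G007-LK, and in RKO 225 to 229 RPKM. The 8 libraries of UO-31 and OVCAR-4 were thus all at or below 1.1 RPKM, and the 12 libraries of the other 3 lines were all at or above 186 RPKM. UQCRHL, an intronless copy of the gene, was at most 0.589 RPKM in any library, so that the signal was not listed under the copy instead. In ABC-1 both G007-LK libraries lay below both DMSO libraries, a log2 change of −0.32 ± 0.06 (limma adjusted p = 2.5e-07, and −0.16 after rescaling), and in COLO 320DM the groups overlapped.

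No other complex III subunit was low in these 2 lines. UQCRB, UQCRC1, UQCRC2, UQCRFS1, UQCRQ, UQCR10 and UQCR11 had DMSO means of at least 37.4 RPKM in UO-31, with 199 RPKM the highest, and of at least 53.3 RPKM in OVCAR-4, with 564 RPKM the highest. LRRC41, whose annotated gene body ends at position 46769288 just before UQCRH and which is transcribed in the other direction, was at 1.33 to 1.7 RPKM in UO-31 and at 56.8 to 78 RPKM in OVCAR-4. In the other lines LRRC41 lay between 16 and 36 RPKM. UO-31 was therefore low for both genes of the pair, and OVCAR-4 was low for UQCRH and the highest line for LRRC41. NSUN4, the next gene on the other side, was at 3.16 to 9.81 RPKM across all lines.

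**Figure D1:**
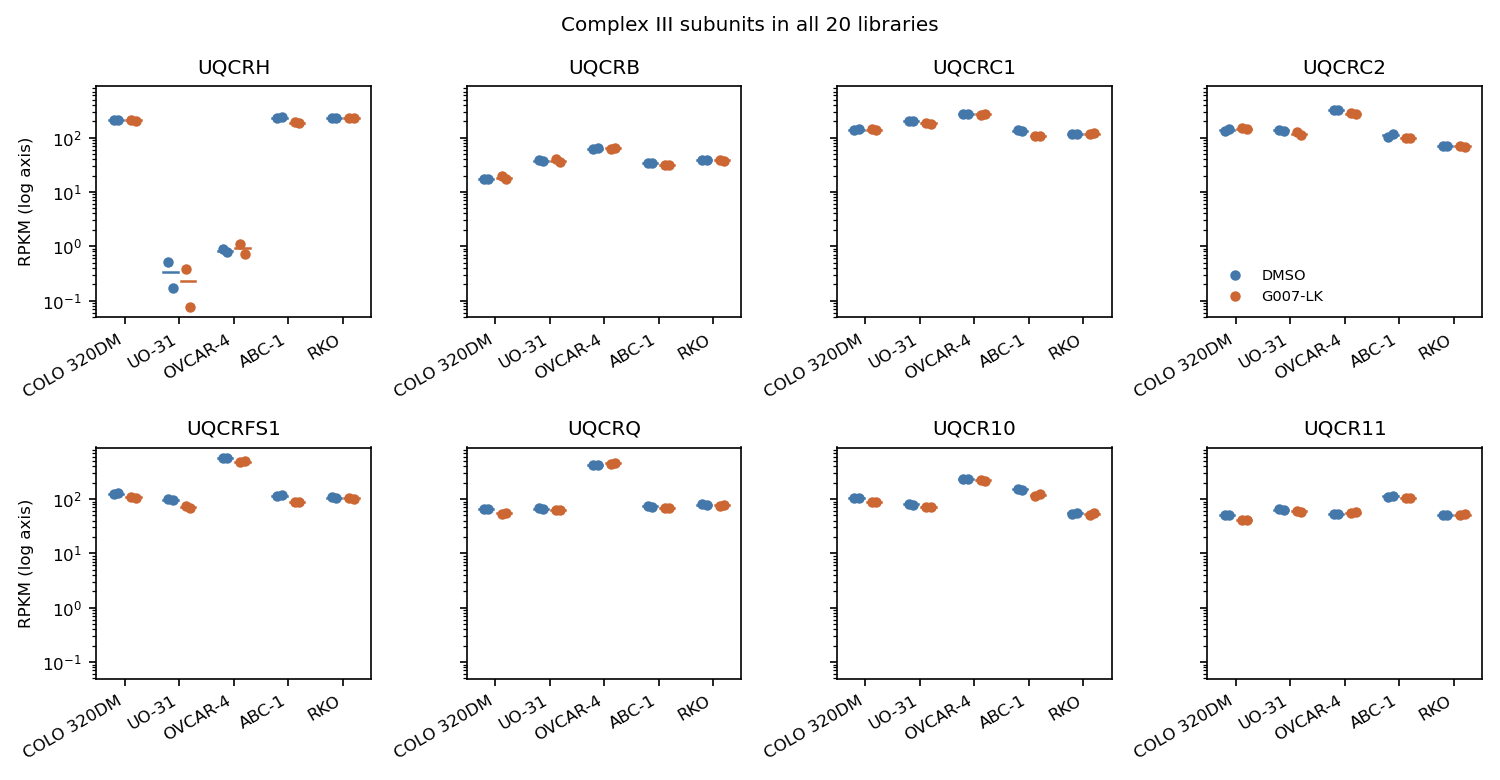
RPKM (log axis) of the 8 complex III subunits found by the symbol rule in each library, with DMSO in blue and G007-LK in orange, and a short line at the mean of 2 libraries. UQCRH lies at or below 1.1 RPKM in UO-31 and OVCAR-4 and at or above 186 RPKM in the other lines, while the other subunits lie at or above 16.9 RPKM in every library.

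The other subunits differed between lines by less. With DMSO, 81 of 81 members tested differed among the 5 lines by limma's F test at an adjusted p under 0.05, which was so for 99.3% of all genes tested and therefore says nothing particular about them. Of the 76 subunits with a DMSO mean above 0 in every line, 67 had their highest mean RPKM in OVCAR-4, and 43 had their lowest in RKO. After division by the summed RPKM, OVCAR-4 was the highest line for 34 of these subunits, COLO 320DM for 16, ABC-1 for 16, RKO for 8 and UO-31 for 2, and the median ratio of the highest to the lowest line was 2.22. Together the 81 subunits held 2.75% ± 0.0119 (SD, n = 2) of the summed RPKM in OVCAR-4, 2.62% ± 0.103 in COLO 320DM, 2.57% ± 0.0467 in ABC-1, 2.03% ± 0.00113 in RKO and 1.99% ± 0.00314 in UO-31 with DMSO. The neighbours OVCAR-4 and COLO 320DM did not overlap, COLO 320DM and ABC-1 overlapped, and RKO and UO-31 lay below the other lines, without overlap with each other.

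ABC-1 stood apart for SDHA and NDUFS6, which both lie near the start of chromosome 5 (GRCh37 chr5:218418-257197 and chr5:1801521-1816162). SDHA, the flavoprotein of succinate dehydrogenase, was at 214 and 233 RPKM in ABC-1 with DMSO and at 43 to 66 RPKM in the DMSO libraries of the other lines. NDUFS6, an accessory complex I subunit, was at 475 and 431 RPKM in ABC-1 and at 99.5 to 142 RPKM elsewhere. On the scale divided by the summed RPKM, OVCAR-4 was the lowest line for both, with a ratio of ABC-1 to OVCAR-4 of 9.65 for SDHA and 8.03 for NDUFS6.

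Their neighbouring genes differed likewise. In chr5:1-2500000, a window chosen after these levels were seen, 17 other protein-coding genes with at least 1 RPKM in a line were a median of 1.26 higher on the log2 scale in ABC-1 than in the median of the other lines, against −0.16 for all genes, and 14 of the 17 lay above 0. In OVCAR-4 the same 17 genes had a median of −1.3, and 0 of the 17 lay above 0. NDUFS7, ATP5D and UQCR11 lie within chr19:1000000-2000000 and also had ABC-1 as the highest and OVCAR-4 as the lowest line on that scale, with ratios of 4.94, 4.27 and 3.91. There, 29 other genes had a median of 0.6 in ABC-1 and −1.01 in OVCAR-4. In COLO 320DM, UO-31 and RKO the medians of both windows lay between −0.04 and 0.21.

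Of the tissue-restricted isoforms, COX4I2 and COX6A2 were listed at 0 in all 20 libraries. COX7A1, known from heart and skeletal muscle, was at most 0.215 RPKM, COX7B2 at most 0.281, COX8C at most 0.563 and COX6B2 at most 0.702 RPKM. Their ubiquitous partners COX4I1, COX6A1, COX6B1, COX7A2, COX7B and COX8A carried the signal, with COX6B2 at no more than 0.376% of the COX6B1 and COX6B2 sum. These 6 isoforms, both readthrough transcripts, both pseudogenes and both retrocopies did not reach a mean of 1 RPKM over the 4 libraries of any line. The pseudogene ATP5EP2 reached a mean of 1.15 RPKM in the DMSO libraries of RKO and so entered only the test among the lines with DMSO. In all, 76 of the 92 members passed this filter in every line, 4 in some lines (UQCRH, NDUFA4L2 and the antisense RNAs of NDUFA6 and NDUFB2) and 12 in none.

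The number of members called after TNKSi, and their direction, differed between the lines. In ABC-1, 56 of 78 members tested were lower after G007-LK and 1 was higher. In OVCAR-4, 16 of 78 were lower and 17 higher, in COLO 320DM 13 of 79 lower and 1 higher, and in UO-31 6 of 78 lower and 0 higher. In RKO, 0 of 78 passed limma's test in either direction. These counts are from limma on log2(RPKM + 0.5) within a line, with Benjamini-Hochberg adjustment over all genes tested and a threshold of 0.05, and log2 fold changes are on that scale, which understates the change of low genes. The same test called many other genes, so the counts are to be read against that background. Of all genes tested, 41.2% were lower and 16.6% higher in ABC-1, 39% lower and 12.6% higher in OVCAR-4, 11.6% lower and 7.7% higher in COLO 320DM, 8.63% lower and 4.79% higher in UO-31, and 2.75% lower and 1.36% higher in RKO. The median SE of the members' log2 change was 0.13 in UO-31, 0.08 in COLO 320DM, 0.06 in ABC-1, 0.04 in OVCAR-4 and 0.03 in RKO, so that the same change is called less readily in UO-31 and COLO 320DM, and the counts do not rank the lines by the size of the response. The members' median change was −0.09 in both UO-31 and COLO 320DM and −0.02 in RKO. The members' share was 71.8% lower in ABC-1, 20.5% lower and 21.8% higher in OVCAR-4, 16.5% lower in COLO 320DM and 7.69% lower in UO-31. The share in UO-31 was thus near its background, that in ABC-1 above it, and in OVCAR-4 fewer members were lower and more were higher than among all genes. The excess of rises in OVCAR-4 did not hold in every fit, as given below. In RKO, 12 of the 78 members had an unadjusted p under 0.05, and the rule of the study's own NOISeq test, recomputed here, called 1 lower and 1 higher. In RKO 1 member was lower without G007-LK replicate 1, and 1 was higher without DMSO replicate 1.

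The median of all genes itself was shifted by −0.14 in ABC-1 and −0.11 in OVCAR-4 on the log2 scale, and lay between −0.04 and −0.01 in the other lines. After each library was rescaled so that the median gene did not move, 38 of 78 members (48.7%) were lower and 3 higher in ABC-1, against 32.4% lower and 31.4% higher among all genes. In OVCAR-4 the balance moved to 8 lower and 46 higher (59% higher), against 23% lower and 24.1% higher among all genes. In COLO 320DM 15 of 79 members were lower and 5 higher, against 2277 and 2074 of all 11279 genes. In UO-31 6 of 78 were lower and 0 higher, against 1837 and 1727 of 11851 genes. In RKO 0 of 78 were called, against 111 lower and 174 higher of 10518 genes. The members' shares in these lines were not above those of all genes. The median change of the members was −0.29 in ABC-1 as deposited and −0.13 after rescaling, and in OVCAR-4 0.01 and 0.13. By their median the members were therefore below the median gene in ABC-1 and above it in OVCAR-4. Rescaling moves all genes of a library by the same factor, so this gap is nearly the same on both scales. The rescaled values are not separate support for it. The direction of single members in OVCAR-4 depended on the scale.

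**Figure D2:**
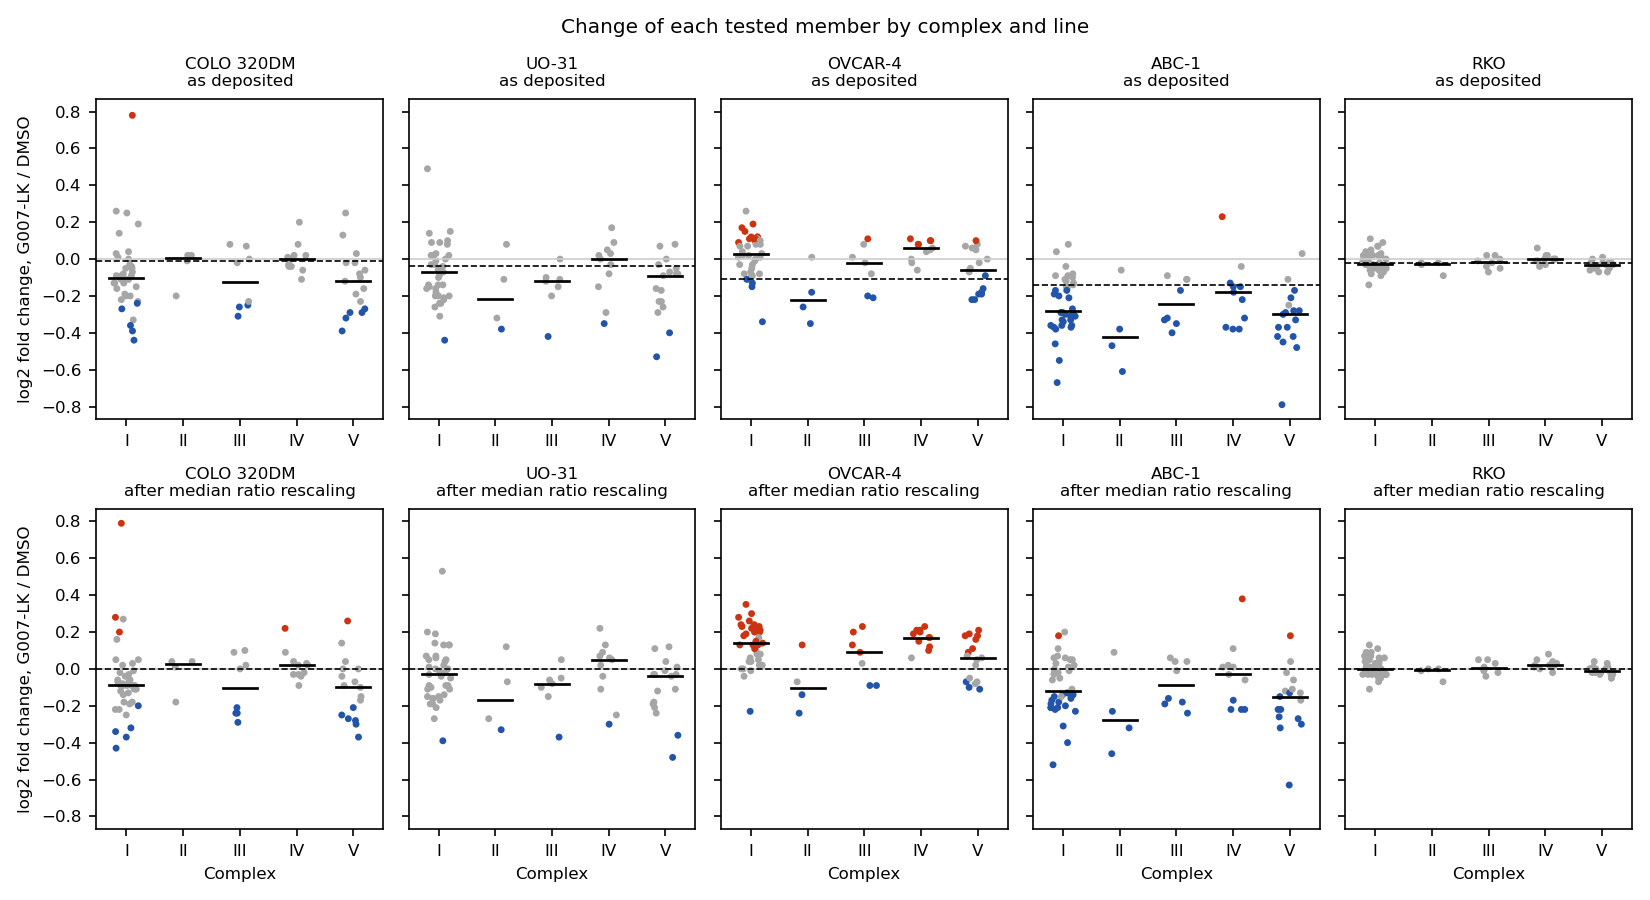
The log2 fold change (G007-LK over DMSO) of each tested member, by complex and line, as deposited (top) and after median ratio rescaling (bottom), with members called lower in blue, called higher in red and not called in grey. Short lines are medians per complex and the dashed line is the median of all genes; members of ABC-1 lie mostly below it, those of OVCAR-4 mostly above it, and those of RKO within −0.14 to 0.11 as deposited.

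The shares of the summed RPKM, which do not depend on the scale between libraries, are given beside these medians. The 81 subunits held 2.6% and 2.54% of it in ABC-1 with DMSO and 2.29% and 2.34% with G007-LK, and in OVCAR-4 2.76% and 2.74% against 2.86% and 2.86%, both without overlap. In RKO the share was 2.03% and 2.03% against 2.03% and 2.04%, and in COLO 320DM, at 2.69% and 2.55% against 2.59% and 2.62%, the groups overlapped. In UO-31 it was 1.99% and 1.98% with DMSO and 1.82% and 1.98% with G007-LK. Complex IV in OVCAR-4 went from 0.691% and 0.688% to 0.748% and 0.737%, and complex II from 0.0706% and 0.0703% to 0.0634% and 0.0615%.

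The complexes did not move alike. In OVCAR-4, the median change as deposited was 0.03 for complex I, −0.22 for complex II, −0.02 for complex III, 0.06 for complex IV and −0.06 for complex V. All 5 calls in complex IV were rises, and all 3 calls in complex II were falls. In ABC-1 the medians were −0.28, −0.43, −0.24, −0.18 and −0.3, and after rescaling −0.12, −0.27, −0.09, −0.03 and −0.15. Complex II was thus lowest and complex IV highest in both lines. Rescaling moves all genes of a library by the same factor, so it leaves this order nearly unchanged and is no separate support. Complex II has only 4 genes, and no test was made between complexes. In COLO 320DM, complex II and complex IV had no member called, and 5 of 39 members of complex I, 3 of 8 of complex III and 5 of 17 of complex V were lower.

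ATP5G1 was the only member called lower in all 4 TNKSi-sensitive cell lines as deposited. It encodes the c subunit of the ATP synthase, the membrane ring that turns with proton flow, and the mature protein is the same as that of ATP5G2 and ATP5G3, which differ in their import sequences. In ABC-1 its level was 189 and 188 RPKM with DMSO and 109 and 109 RPKM with G007-LK. In UO-31 it was 175 and 172 RPKM with DMSO and 122 and 119 RPKM with G007-LK. In COLO 320DM it was 249 and 257 RPKM against 214 and 206 RPKM, and in OVCAR-4 336 and 335 RPKM against 293 and 307 RPKM. In each of these lines both G007-LK libraries lay below both DMSO libraries. In RKO it was 101 and 99.8 RPKM with DMSO and 93.3 and 99.7 RPKM with G007-LK, also without overlap but by a small margin.

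The log2 fold change of ATP5G1 was −0.79 ± 0.06 (SE) in ABC-1, with an adjusted p of 6.14e-35 by limma as deposited and of 4.76e-07 after rescaling, where the change was −0.63. It was −0.53 ± 0.12 in UO-31 (limma adjusted p = 0.000296), −0.27 ± 0.07 in COLO 320DM (limma adjusted p = 0.0115) and −0.06 ± 0.03 in RKO (limma adjusted p = 0.31). In OVCAR-4 it was −0.16 ± 0.03 as deposited (limma adjusted p = 0.0018) and −0.05 after rescaling (limma adjusted p = 0.192), so that the call in OVCAR-4 rests on the scale. In UO-31 leaving out either DMSO library ended the call, and in COLO 320DM leaving out either G007-LK library (replicate 1 or 2) did so. The change differed from that of RKO by −0.73 ± 0.06 in ABC-1 (limma adjusted p = 6.3e-07) and by −0.47 ± 0.08 in UO-31 (limma adjusted p = 0.0133).

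Of the other genes of the c subunit, ATP5G2 was not called in any line as deposited, while ATP5G3 fell in ABC-1. ATP5G2 was at 243 and 242 RPKM with DMSO and at 245 and 249.6 RPKM with G007-LK in ABC-1, a log2 change of 0.03 ± 0.06 (limma adjusted p = 0.659), and its changes in the 4 sensitive lines lay between 0.03 and 0.07. ATP5G3 fell in ABC-1 from 38.2 and 41 RPKM to 29.7 and 29.4 RPKM, a log2 change of −0.42 ± 0.08 (limma adjusted p = 1.77e-06). It was also called lower in OVCAR-4 as deposited (−0.09 ± 0.04, limma adjusted p = 0.048), where its change after rescaling was 0.02. Within a library the share of ATP5G1 in the sum of the 3 genes does not depend on the scale between libraries. It was 40.3% and 40% in ABC-1 with DMSO and 28.4% and 28.2% with G007-LK, and 32.3% and 32.1% against 24.2% and 24.8% in UO-31. In COLO 320DM it was 38.6% and 39% against 34.8% and 34.7%, and in OVCAR-4 36.3% and 35.9% against 32.8% and 33.9%. The groups did not overlap in any of these 4 lines, while in RKO, at 27% and 26.5% against 25.8% and 26.7%, they did. With 2 libraries a group an exact permutation test cannot reach 0.05, and none was made on the shares.

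**Figure D3:**
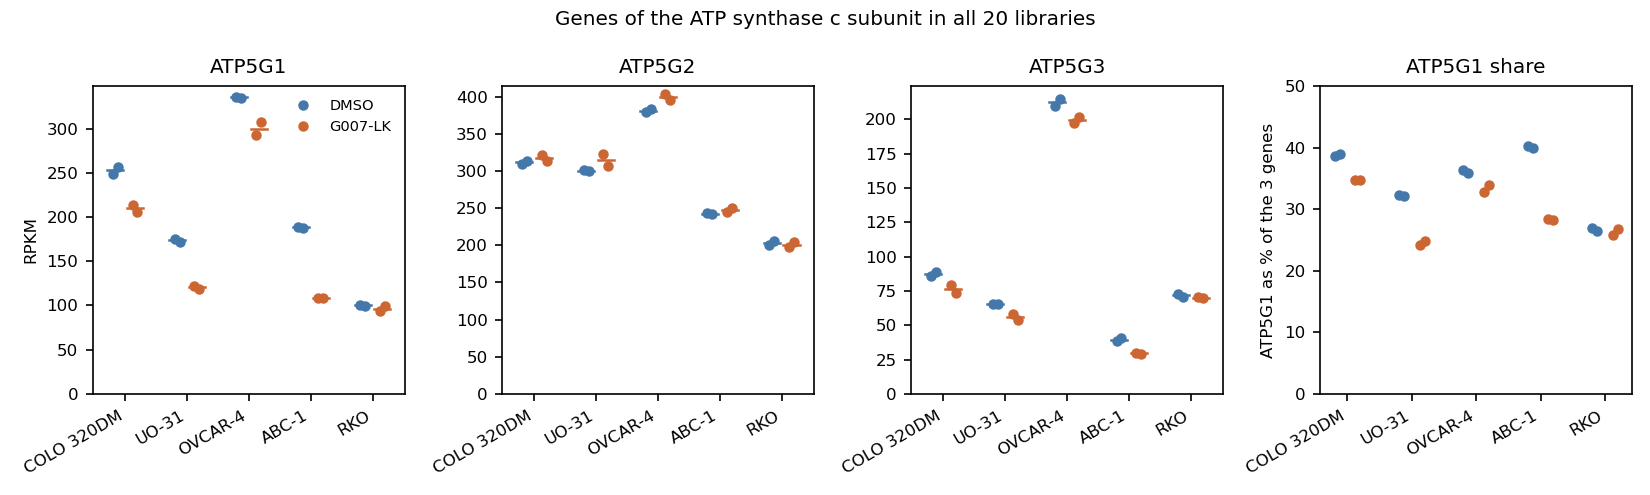
RPKM of ATP5G1, ATP5G2 and ATP5G3 in each library, and ATP5G1 as a percentage of the sum of the 3 genes, with DMSO in blue, G007-LK in orange and short lines at the means. In ABC-1 the ATP5G1 share is 40% to 40.3% with DMSO and 28.2% to 28.4% with G007-LK, and in RKO the groups overlap.

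Beside ATP5G1, 5 members were lower in 3 sensitive lines as deposited, namely NDUFS1, NDUFV2, SDHB, UQCRFS1 and ATP5B. NDUFS1 is the largest core subunit of complex I and carries iron-sulfur clusters. It was at 27.5 and 30.5 RPKM with DMSO and 19.2 and 16.9 RPKM with G007-LK in ABC-1, and at 63.5 and 67.1 RPKM against 52.1 and 50.9 RPKM in OVCAR-4. In UO-31 it was at 38.1 and 36.9 RPKM against 32.4 and 23.4 RPKM. The groups were separate in these 3 lines and overlapped in COLO 320DM and RKO. ABC-1 had a log2 fold change of −0.67 ± 0.09 for it and OVCAR-4 of −0.34 ± 0.05. In UO-31 it was −0.44 ± 0.16, where the limma adjusted p was 0.0488 and the call was lost without either DMSO replicate.

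In complex II, SDHB, the iron-sulfur subunit, fell in ABC-1 from 79.2 and 83.2 RPKM to 53.1 and 52.7 RPKM. In OVCAR-4 it fell from 273 and 265 RPKM to 229 and 221 RPKM, and in UO-31 from 85.3 and 83.9 RPKM to 68 and 62.3 RPKM. The groups were separate in these lines, while in COLO 320DM, at 73.3 and 81.8 RPKM against 79.8 and 77.4 RPKM, they overlapped. The changes were −0.61 ± 0.07, −0.26 ± 0.04 and −0.38 ± 0.14, the last with a limma adjusted p of 0.0448 and lost without either DMSO replicate of UO-31. SDHD, a membrane anchor of the complex, fell in OVCAR-4 from 191 and 201 RPKM to 154 and 153 RPKM (−0.35 ± 0.04), the largest fall of any called member in that line, and in ABC-1 by 0.47 on the log2 scale. SDHC, the other anchor, was not called in any line as deposited, with changes from −0.06 to 0.08, and rose by 0.13 in OVCAR-4 after rescaling (limma adjusted p = 0.00831).

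In complex III, UQCRFS1, the Rieske iron-sulfur protein, was the only member called lower in all 4 sensitive lines after rescaling. As deposited it was at 112 and 119.9 RPKM with DMSO and 87.6 and 88.1 RPKM with G007-LK in ABC-1, at 99.1 and 94.5 RPKM against 75.5 and 69.3 RPKM in UO-31, and at 559.7 and 568 RPKM against 485 and 495 RPKM in OVCAR-4. In COLO 320DM it was at 123 and 129 RPKM against 109 and 106 RPKM, and the groups were separate in all 4 lines. In RKO, at 107 and 104 RPKM against 102.6 and 101.6 RPKM, they were separate too, by a small margin and without a call. ABC-1 had a change of −0.4 ± 0.07, UO-31 of −0.42 ± 0.13, OVCAR-4 of −0.2 ± 0.03 and COLO 320DM of −0.23 ± 0.08, where the limma adjusted p was 0.0508 as deposited and 0.0324 after rescaling.

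In complex V, ATP5B, the catalytic beta subunit, was at 714 and 779.7 RPKM with DMSO and 536 and 535 RPKM with G007-LK in ABC-1. In UO-31 it was at 797 and 808 RPKM against 647 and 567 RPKM, and in OVCAR-4 at 1732 and 1739 RPKM against 1487 and 1496 RPKM. The groups did not overlap, with changes of −0.48 ± 0.05, −0.4 ± 0.08 and −0.22 ± 0.02. In COLO 320DM it was at 812 and 889 RPKM against 854 and 824 RPKM, a change of −0.02 ± 0.06. In RKO it was at 465 and 471 RPKM against 445 and 445 RPKM, also without overlap but not called. In UO-31 the 6 called members were ATP5G1, NDUFS1, UQCRFS1, ATP5B, SDHB and COX5A, 1 or 2 of each complex, and all 6 were also called after rescaling. Among all genes 1837 of 11851 were lower in UO-31 after rescaling, a larger share than that of the members. Leaving out either DMSO library of UO-31 ended all 6 calls. Leaving out G007-LK replicate 1 moved the median change of all genes to −0.2, and leaving out replicate 2 moved it to 0.11. In both fits the counts of members rose in both directions, as did those of all genes. The median gene differed by −0.285 (log2) between the G007-LK libraries of UO-31, while in the other pairs of libraries it differed by −0.0931 to 0.168. The part of these shifts in the counts was not tested.

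**Figure D4:**
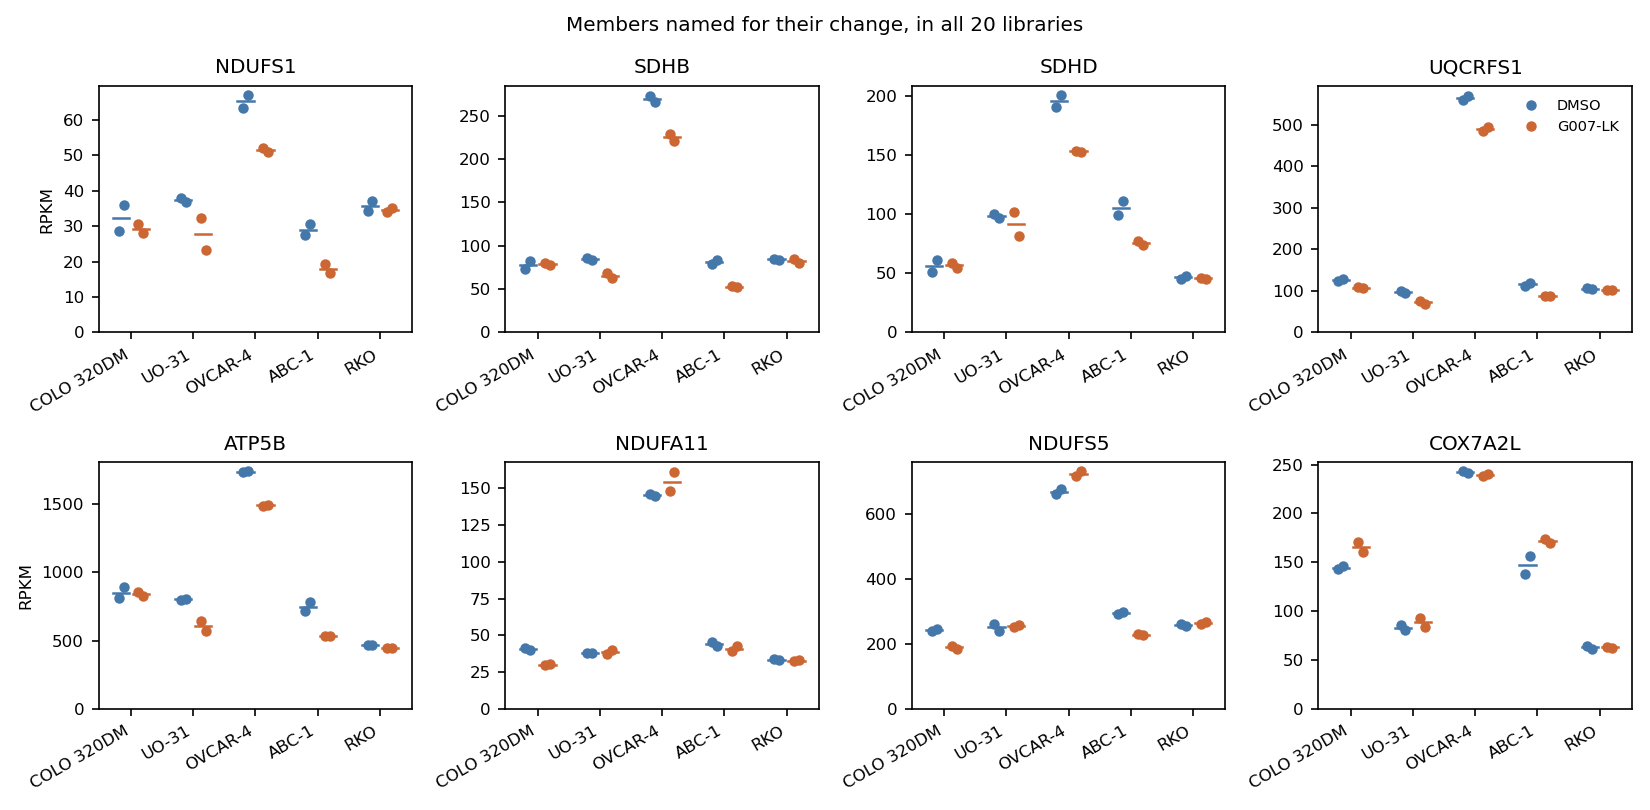
RPKM of 8 members in each library, with DMSO in blue, G007-LK in orange and short lines at the means of 2 libraries. NDUFS1, SDHB, UQCRFS1 and ATP5B are lower with G007-LK in ABC-1, OVCAR-4 and UO-31, NDUFA11 is called lower in COLO 320DM alone, NDUFS5 is lower in COLO 320DM and ABC-1 and higher in OVCAR-4, and COX7A2L is higher in ABC-1.

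Of the 13 members lower in COLO 320DM, 10 were also among the 56 lower in ABC-1, and NDUFA11, UQCR11 and UQCRQ were not. Of all 78 members tested in ABC-1 71.8% were lower, so the overlap is near that share and says nothing particular about these 13. The 13 lower members were the accessory subunits NDUFA11, NDUFS5, NDUFS6 and NDUFB7 and the core subunit NDUFV2 of complex I, the small accessory subunits UQCR10, UQCR11 and UQCRQ of complex III, and, of complex V, ATP5D and ATP5E of the central stalk, ATP5L and ATP5J2 of the membrane part, and ATP5G1. SDHB, ATP5B and NDUFS1 were not among them. NDUFA11, a membrane arm subunit, fell from 41.7 and 40.4 RPKM to 29.8 and 30.3 RPKM (−0.44 ± 0.1, limma adjusted p = 0.00403). In the other 4 lines its change lay between −0.1 and 0.08 and was not called as deposited, although it was called higher in OVCAR-4 after rescaling (0.19). NDUFS5, another accessory subunit, fell from 241 and 246 RPKM to 194 and 185 RPKM in COLO 320DM (−0.36 ± 0.07) and from 293 and 297 RPKM to 229.6 and 226 RPKM in ABC-1 (−0.37 ± 0.06). In OVCAR-4 it rose from 660.2 and 676 RPKM to 717 and 730.4 RPKM (0.11 ± 0.03, limma adjusted p = 0.00593).

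The COLO 320DM count was sensitive to single libraries. Without G007-LK replicate 1 the number of lower members was 2, without G007-LK replicate 2 it was 0, and without a DMSO library it was at most 17. The only called rise in this line was NDUFA4L2, a paralog of NDUFA4 known to be induced in low oxygen, from 0.775 and 0.875 RPKM to 1.55 and 2.02 RPKM (0.78 ± 0.15). Its DMSO values lay below the filter of 1 RPKM, so it was tested only through its G007-LK values. In UO-31 it was at 0.686 and 0.823 RPKM against 0.884 and 1.41 RPKM. In OVCAR-4 it was at 0.561 and 0.395 RPKM against 0.938 and 0.996 RPKM. Both were higher, but NDUFA4L2 did not pass the filter in these lines. It remained at 2.97% or less of the NDUFA4 and NDUFA4L2 sum, and the call was lost without G007-LK replicate 2. Without DMSO replicate 1 or 2 of COLO 320DM, the number of members higher was 2 and 3.

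In OVCAR-4, the 17 rises as deposited were of 0.08 to 0.19 on the log2 scale. NDUFA1, a small membrane arm subunit, was at 463 and 454 RPKM with DMSO and 516 and 516 RPKM with G007-LK (0.17 ± 0.03, limma adjusted p = 0.000552). NDUFB11 went from 237 and 239 RPKM to 267 and 263 RPKM (0.15 ± 0.03, limma adjusted p = 0.00235). NDUFA13, also known as GRIM-19, rose most as deposited, from 733 and 735 RPKM to 794 and 878 RPKM (0.19 ± 0.04), and the complex IV subunits COX6A1, COX6C, COX7C, COX4I1 and COX8A rose by 0.08 to 0.11. All 17 rises were also called after rescaling, and 8 of the 16 falls were: NDUFS1, SDHB, SDHD, UQCRC2, UQCRFS1, ATP5A1, ATP5B and ATP5C1. Rescaling moves the changes of all genes in OVCAR-4 upward, so the rises were bound to stay rises. Fewer members were called higher when either OVCAR-4 DMSO library was left out, and their share was then below that of all genes. Without DMSO replicate 2 the falls were fewer too. In the fit over all 20 libraries 4 of 78 members were higher in OVCAR-4, against 931 of all 12425 genes. As deposited, 12 members were called in opposite directions in different lines, and after rescaling 25 were, 6 of them the same (COX8A, NDUFA6, NDUFB4, NDUFB9, NDUFS5 and UQCRQ). Opposite calls among all genes were not counted, so no background stands beside these numbers. The 12 were each a rise in OVCAR-4 and a fall in ABC-1 or COLO 320DM, and of these COX4I1 and COX6A1 in ABC-1 turned to 0.01 and 0.02 after rescaling, and NDUFB1 and NDUFB7 in ABC-1 to 0.03 and 0.03 after quantile normalization.

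The change in OVCAR-4 went with transcript length. Across 76 tested members with a length in the GRCh37 annotation, Spearman's rho between length and log2 fold change was −0.57 in OVCAR-4, against −0.3 over 11973 genes, and in the other lines it lay between −0.24 and 0.1. The 42 members under 1000 bases had a median change of 0.07 and the 34 longer ones of −0.06, while all genes of those lengths had medians of 0.02 and −0.12. These are values across genes of the same 4 libraries, which are not independent replicates. Of 80 subunits with a length, 49 had a transcript under 1000 bases, so short transcripts are a feature of the set. The part of transcript length in the change was not tested.

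**Figure D5:**
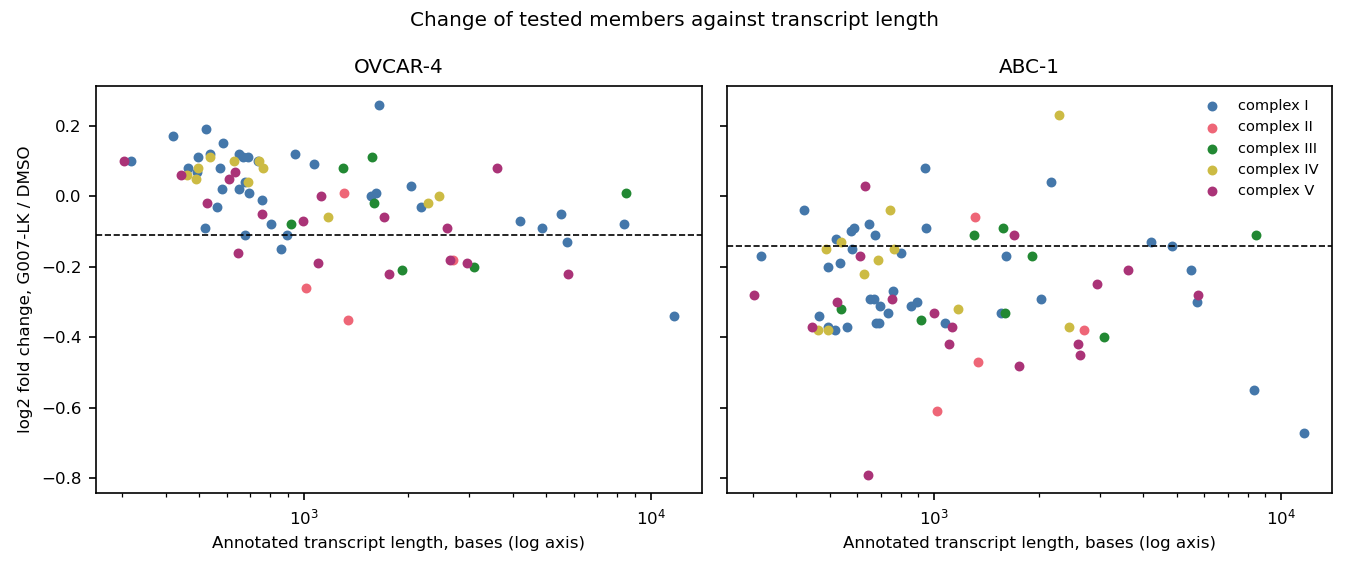
The log2 fold change as deposited of each tested member against annotated transcript length (log axis) in OVCAR-4 and ABC-1, coloured by complex, with the median of all genes dashed. In OVCAR-4 the points fall with length (rho −0.57), and in ABC-1 they show no such order (rho −0.09).

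COX7A2L, counted with complex IV by its symbol, was the only member called higher in ABC-1 as deposited. Its protein links complexes III and IV into supercomplexes and is not a subunit of complex IV in the strict sense. It was at 138 and 156 RPKM with DMSO and 174 and 169.7 RPKM with G007-LK in ABC-1, without overlap (0.23 ± 0.06, limma adjusted p = 0.000572, and 0.38 after rescaling). In COLO 320DM it was at 143 and 146 RPKM against 171 and 161 RPKM (0.2 ± 0.08), with a limma adjusted p of 0.0699 as deposited and 0.0328 after rescaling. In RKO it was at 64.6 and 61.1 RPKM against 63 and 62.7 RPKM. In ABC-1 leaving out either G007-LK library ended the call. COX7A2, the subunit it resembles, fell in ABC-1 from 136 and 145 RPKM to 104 and 113 RPKM (−0.38 ± 0.06).

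In ABC-1 the falls reached all complexes. The most reduced called member of complex I was NDUFS1, of complex II SDHB, of complex III UQCRFS1 and of complex V ATP5G1, with the values given above. Among the core subunits of complex I, NDUFV1, which binds NADH, fell from 109 and 112 RPKM to 88 and 88.2 RPKM (−0.33 ± 0.07), and NDUFV2 fell from 149.9 and 169 RPKM to 131 and 126 RPKM (−0.31 ± 0.06). NDUFS3 fell by 0.3 and NDUFS8 by 0.33, and both were also called after rescaling. NDUFS7 fell by 0.27 as deposited and was not called after rescaling. The accessory subunit NDUFA9 fell from 54.9 and 58.3 RPKM to 38.3 and 38.4 RPKM (−0.55 ± 0.08), while in RKO it was at 47.6 and 45.8 RPKM against 48.6 and 46.3 RPKM. In complex III, the core proteins UQCRC1 and UQCRC2 fell by 0.33 and 0.17, the second turning to 0.08 after quantile normalization. SDHA of complex II fell from 214 and 233 RPKM to 172 and 171 RPKM (−0.38 ± 0.06). In complex V, the catalytic subunit ATP5A1 fell from 308 and 355 RPKM to 279 and 267 RPKM (−0.28 ± 0.05), a call that was lost after rescaling, and ATP5C1 from 191 and 211 RPKM to 151 and 149 RPKM (−0.42 ± 0.06), a call that held. In complex IV, COX8A fell from 401 and 393 RPKM to 293 and 319 RPKM in ABC-1 (−0.38 ± 0.05) and rose from 962 and 946 RPKM to 987 and 1033 RPKM in OVCAR-4 (0.08 ± 0.03). Of the 56 falls, 38 were also called after rescaling, among them 18 of complex I, 3 of complex II, 4 of complex III, 4 of complex IV and 9 of complex V. COX4I1, COX6A1 and COX6B1 were called lower as deposited and lay at 0.01 to 0.02 after rescaling, so their direction rests on the scale. Without G007-LK replicate 2 of ABC-1, the number of falls was 37.

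Over the 4 sensitive lines together, with the line as a block, 32 of 76 members were lower and 1 (COX7A2L) was higher, against 33.8% lower and 10.2% higher among all genes, a share of members of 42.1% lower. After rescaling 12 were lower and 8 higher, against 24.1% lower and 26.6% higher among all genes. The 12 were ATP5A1, ATP5B, ATP5C1, ATP5F1, ATP5G1, ATP5G3, NDUFS1, NDUFV2, SDHA, SDHB, SDHD and UQCRFS1, all of which were also lower as deposited. The largest change as deposited was that of ATP5G1 (−0.44 ± 0.07, limma adjusted p = 8.87e-05). Without ABC-1 the number of lower members was 15, against 2143 of all 9938 genes, and the members' share was then not above that of all genes. The rise of COX7A2L was called at a limma adjusted p of 0.0351 and was not called when ABC-1, COLO 320DM or UO-31 was left out, nor without a single library of COLO 320DM, ABC-1 DMSO replicate 1, either G007-LK library of ABC-1, UO-31 DMSO replicate 2 or UO-31 G007-LK replicate 1.

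A test of the difference from RKO was made in each sensitive line. The change of 53 of 78 members differed between ABC-1 and RKO (46.8% of all genes tested), 52 of them toward a fall. For OVCAR-4 it was 18 of 79 (35.4% of all genes), 8 toward a fall and 10 toward a rise, for COLO 320DM 7 of 78 (11.6% of all genes) and for UO-31 3 of 79 (6.16% of all genes), all toward a fall. After rescaling, 37 of 79 differed in OVCAR-4 (27.7% of all genes) and 19 of 78 in ABC-1 (52% of all genes). The members' share was above that of all genes only in ABC-1 as deposited and only in OVCAR-4 after rescaling. These 4 comparisons share the RKO libraries and are not independent. NDUFA11, NDUFS5 and ATP5J2 differed most in COLO 320DM, by −0.41 ± 0.08, −0.4 ± 0.06 and −0.37 ± 0.06 on the log2 scale. The count of 7 in COLO 320DM was 18 and 21 without DMSO replicate 1 or 2 of that line, 4 without its G007-LK replicate 2, and 2 without any single library of RKO. The 3 calls in UO-31 were lost without any single RKO library or either UO-31 DMSO library, and the count rose without either UO-31 G007-LK library. The counts of all genes moved likewise in both lines.

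Other genes of the pathway were read in the same fits. Their counts after rescaling are to be read against the counts of all genes after rescaling given above. Assembly factors build the complexes, and of the 48 genes listed as such NDUFAB1 is also a subunit. In ABC-1 35 of 47 tested were lower and 1 higher, where 41.2% of all genes were lower, and 28 and 7 after rescaling. In OVCAR-4 23 of 48 were lower and 4 higher, where 39% of all genes were lower, and 11 and 8 after rescaling. In COLO 320DM 14 of 48 were lower and 1 higher, against 11.6% of all genes lower, and 21 and 1 after rescaling. In UO-31 5 of 48 were lower, near the 8.63% of all genes, and 12 were lower and 1 higher after rescaling. In RKO 5 of 48 were lower and 1 higher as deposited, against 2.75% and 1.36% of all genes, and 1 and 1 after rescaling. COX17, a copper chaperone of complex IV, fell in ABC-1 from 94.2 and 104 RPKM to 49.6 and 46.9 RPKM (−1.03 ± 0.07), a larger fall than that of any subunit. NDUFAF4, an assembly factor of complex I, fell from 9.64 and 9.16 RPKM to 4.24 and 4.45 RPKM in ABC-1 (−1.03 ± 0.12) and was also called lower in UO-31 and OVCAR-4.

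Of 13 genes of the tricarboxylic acid cycle, which supplies NADH and succinate to the chain, 12 were lower in ABC-1 (10 after rescaling), against 41.2% of all genes. In OVCAR-4 9 were lower (5, with 1 higher, after rescaling), against 39% of all genes. In UO-31 2 were lower (4 after rescaling), against 8.63%, and in COLO 320DM 2 lower and 2 higher (4 and 2 after rescaling), against 11.6% and 7.7%. In RKO 0 of the 13 were called by limma on either scale, with 5 at an unadjusted p under 0.05 and 0 called by the NOISeq rule. FH, fumarate hydratase, the enzyme that follows succinate dehydrogenase, fell in ABC-1 from 111 and 119.7 RPKM to 58.9 and 57.3 RPKM (−0.98 ± 0.07) and in UO-31 by 0.53. Of 10 other electron carriers and donors, 7 of 9 tested were lower and 1 higher in ABC-1 (6 and 1 after rescaling), against 41.2% and 16.6% of all genes. In OVCAR-4 6 of 10 were lower and 2 higher (5 and 2), against 39% and 12.6%. For COLO 320DM it was 2 of 9 lower (2 and 1), against 11.6%, and for UO-31 2 of 9 lower (3 and 0), against 8.63%. In RKO 0 of 9 were called by limma on either scale, with 2 at an unadjusted p under 0.05 and 1 called by the NOISeq rule. The mobile carrier CYCS, cytochrome c, fell from 94.2 and 100.4 RPKM to 46 and 45.4 RPKM in ABC-1 (−1.08 ± 0.07), from 61.6 and 59.9 RPKM to 38.9 and 28.7 RPKM in UO-31 (−0.85 ± 0.15) and from 199.9 and 204 RPKM to 151 and 151 RPKM in OVCAR-4 (−0.41 ± 0.04). It was called lower on both scales in these 3 lines. In COLO 320DM, at 60.7 and 69.5 RPKM against 64 and 56.2 RPKM, its groups overlapped.

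Of 17 regulators of respiratory chain transcription, 14 of 16 tested were lower in OVCAR-4, where 39% of all genes were lower, and 7 were lower and 1 higher after rescaling. In ABC-1 7 of 14 were lower, near the 41.2% of all genes, and 5 after rescaling. In COLO 320DM 3 of 16 were lower and 2 higher (5 and 3 after rescaling), against 11.6% and 7.7%. In UO-31 0 of 14 passed limma's test as deposited, with 3 at an unadjusted p under 0.05 and 0 called by the NOISeq rule, and 5 were lower and 1 higher after rescaling. In RKO 0 of 14 were called by limma on either scale, with 2 at an unadjusted p under 0.05 and 1 called by the NOISeq rule. TFAM, which packages and transcribes mitochondrial DNA, fell in ABC-1 from 17.3 and 20.3 RPKM to 11.7 and 10.3 RPKM (−0.75 ± 0.1). In every other line, RKO among them, both G007-LK libraries also lay below both DMSO libraries for TFAM. PPARGC1A, the coactivator PGC-1α, rose in COLO 320DM from 2.1 and 2.85 RPKM to 6.23 and 5.68 RPKM (1.13 ± 0.16) and fell in OVCAR-4 from 4.53 and 4.76 RPKM to 3.48 and 3.03 RPKM (−0.46 ± 0.1), on both scales, while it was at most 0.0916 RPKM in ABC-1 and 0.0172 RPKM in RKO. The 13 subunits encoded by mitochondrial DNA were not analysed here.

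Non-coding members stayed low. The antisense RNA of NDUFA6 was at 0.62 to 4.26 RPKM and that of NDUFB2 at 0.402 to 2.77 RPKM, and neither was called in any line in which it was tested. The sources used here do not state strand-specific counting, so reads of these antisense RNAs and of their partners cannot be told apart.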

How the data were processed

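Poly(A) RNA was enriched with oligo(dT), fragmented to about 200 bp and sequenced on the Illumina HiSeq 2000. For alignment the authors ran SOAPaligner/SOAP2 against an hg19 reference gene set, allowing 2 mismatches, and they deposited RPKM values, 1 per gene entry and library. Aligner and gene set versions were not given in the sources used here. Deposited columns of the authors' own comparisons hold log2 ratios and the NOISeq probability, called above a score of 0.8, and were not used. Missing values were set to 0, and the 8 entries without a symbol (no more than 0.00134% of a library) were left out. The 371 symbols on several entries were joined by summing, and 0 of them had several values in a library. Library totals were not analysed here, so counting error is unknown, and the relative depth within a line was 0.855 to 1.11.

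Values were tested as log2(RPKM + 0.5) with limma 3.58.1 (trend and robust, statmod 1.5.0, R 4.3.3), two-sided, in genes whose mean reached 1 RPKM over the libraries fitted, with Benjamini-Hochberg adjustment over all of them and a threshold of 0.05. The fits were made within each line, over the 4 sensitive lines with the line as a block, as the interaction of line and treatment against RKO, and as an F test over the 10 DMSO libraries, where the filter was a mean of at least 1 RPKM in a line. Tables were made with Python 3.11.15, numpy 2.4.6, pandas 2.3.3 and matplotlib 3.10.9. The fits were tested on simulated data.

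Members, gene lists and tests were chosen with earlier results of these data known. Named members were, per line and complex, the called members with the largest rise and fall, those called in all 4 sensitive lines or in opposite directions, the largest differences from RKO, the core subunits, except 1 that is not reported here, and the isoform groups, and for the gene lists the called genes with the largest change. Alternatives were median ratio rescaling, quantile normalization, other pseudocounts and filters, a fit over all 20 libraries, the NOISeq rule recomputed from RPKM, replicate blocks and leaving out libraries or lines. Same-numbered libraries did not deviate together, with a correlation of replicate differences of −0.254 to 0.0551 over the genes of a line, so the numbers were not treated as pairs.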

Additional observations from a re-analysis of the deposited data

Results flagged for a closer look

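The change with G007-LK differed from that in RKO for 7 members in COLO 320DM, 3 in UO-31, 18 in OVCAR-4 and 53 in ABC-1, each by limma's interaction test at an adjusted p under 0.05. Of all genes tested, 11.6%, 6.16%, 35.4% and 46.8% differed in these lines. Only in ABC-1 was the members' share above that of all genes, and after rescaling only in OVCAR-4. In COLO 320DM the largest differences were those of NDUFA11 (−0.41, limma adjusted p = 0.0105), NDUFS5 (−0.4, limma adjusted p = 0.00266) and ATP5J2 (−0.37, limma adjusted p = 0.00439). In UO-31 they were those of ATP5G1 (−0.47), UQCRFS1 (−0.37) and ATP5B (−0.33). In OVCAR-4 the differences toward a fall were led by SDHD (−0.33), NDUFS1 (−0.29) and SDHB (−0.23), and those toward a rise by NDUFA1 (0.22), NDUFB11 (0.22) and NDUFB3 (0.21). In ABC-1 ATP5G1 (−0.73), NDUFS1 (−0.62) and SDHB (−0.58) differed toward a fall and COX7A2L (0.23) toward a rise. After rescaling, each of these named differences was called again except that of SDHB in OVCAR-4. The difference in medium between RKO and 3 of the 4 sensitive lines cannot be told apart from the line.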

How the results depend on the processing

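Leaving out 1 library at a time gave 0 to 17 members lower and 0 to 3 higher in COLO 320DM, 0 to 37 and 0 to 6 in UO-31, 10 to 20 and 4 to 24 in OVCAR-4, 37 to 58 and 0 to 1 in ABC-1, 0 to 1 and 0 to 1 in RKO, and 25 to 39 and 0 to 1 over the 4 sensitive lines. The counts of differences from RKO ran from 2 to 21 in COLO 320DM, 0 to 34 in UO-31, 13 to 24 in OVCAR-4 and 40 to 58 in ABC-1. Without ABC-1, 15 members were lower over the other sensitive lines, and 0 were higher without ABC-1, COLO 320DM or UO-31. The counts of all genes also moved in these fits and under the alternatives below. The member counts here are given without those shares and by themselves say nothing particular about the members.

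Median ratio rescaling gave 5 members higher in COLO 320DM, 8 lower and 46 higher in OVCAR-4, 3 higher in ABC-1, 12 lower and 8 higher over the 4 sensitive lines, and 5 differences from RKO in UO-31, 37 in OVCAR-4 and 19 in ABC-1. Quantile normalization gave 8 lower and 18 higher in COLO 320DM, 2 higher in UO-31, 9 lower and 37 higher in OVCAR-4, 28 lower and 11 higher in ABC-1, 10 lower and 15 higher over the 4 lines, and 14, 8 and 29 differences from RKO in COLO 320DM, UO-31 and ABC-1. With no filter there were 6 lower and 2 higher in COLO 320DM, 2 lower in UO-31, 11 higher in OVCAR-4, 2 higher in ABC-1, 3 higher over the 4 lines and 1 difference in UO-31. With a mean of at least 5 RPKM, 0 were higher in COLO 320DM and 2 lower in RKO. One fit over 20 libraries gave 23 lower and 4 higher in COLO 320DM, while in UO-31 it gave 30 lower and 2 higher, and 9 lower and 4 higher for OVCAR-4. The NOISeq rule gave 8 lower and 0 higher in COLO 320DM, 3 lower in UO-31, 10 lower and 3 higher in OVCAR-4, and 1 and 1 in RKO.

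The replicate block gave 2 lower in COLO 320DM, 0 higher over the 4 lines and 1 difference from RKO in COLO 320DM. Pairing with crossed numbers, chosen after seeing the data, gave 30 lower and 8 higher in COLO 320DM, 1 lower in UO-31, and 4 lower and 1 higher in RKO. Of 260 alternative counts, 162 lay within 1.5 times the reported count. Of 961 alternative values of the 74 named pairs of member and line, 781 kept direction and call, 170 kept the direction and lost the call, and 10 turned direction without a call. These were, under rescaling and quantile normalization, ATP5G3 in OVCAR-4 (0.02 and 0.02) and, in ABC-1, COX4I1 (0.01 and 0.02) and COX6A1 (0.02 and 0.03), with COX6B1 (0.01) under rescaling alone, and NDUFB1 (0.03), NDUFB7 (0.03) and UQCRC2 (0.08) under quantile normalization alone. The cause of these changes was not tested. The falls of ATP5G1, NDUFS1, SDHB, UQCRFS1 and ATP5B in ABC-1 were called under every alternative fit by limma. The NOISeq rule is not among the 961 values. The values carry no counts, so counting error is not part of any of these ranges.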

Other observations

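PRODH, proline dehydrogenase, which passes electrons to ubiquinone, was the only one of the 10 other carriers and donors called higher in ABC-1. It was at 45.8 and 43.2 RPKM with DMSO and 108 and 106 RPKM with G007-LK there (1.26 ± 0.07 on the log2 scale), at 4.52 to 5.61 RPKM in OVCAR-4 and at or below 0.676 RPKM in COLO 320DM, UO-31 and RKO. DHODH, dihydroorotate dehydrogenase, which also gives electrons to ubiquinone, was lower in COLO 320DM (−0.61 ± 0.13), OVCAR-4 (−0.47 ± 0.09) and ABC-1 (−0.62 ± 0.13), each with a limma adjusted p under 0.05. In UO-31 it was at 8.3 and 7.79 RPKM with DMSO and 5.84 and 4.96 RPKM with G007-LK, also without overlap. In RKO, at 8.58 and 9.04 RPKM against 8.3 and 7.95 RPKM, the groups were separate by a small margin.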
